A study of Mus musculus with 3 samples.

Results

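Transient receptor potential (TRP) channels are cation channels through which sensory neurons detect heat, cold and irritants. The channels described here are 9 genes fixed by name, namely Trpv1, Trpa1, Trpm8, Trpm3, Trpm2, Trpc6, Trpc7, Trpv2 and Trpv4, out of 32227 genes counted, and all 9 were found. They were followed in nuclei of lumbar dorsal root ganglia (DRG, L3 to L5), the ganglia that hold the cell bodies of the sensory neurons of the hind limb, from C57BL/6 mice. There was 1 library of adult mice (3 months) and there were 2 libraries of aged mice (21 months), so that the adult group has no replicate. No treatment is named for these mice, and the study gives them as wild type. The mice behind each library are not numbered in the labels. In the tests of age within a group, p-values measure the spread between the 2 aged libraries. In the tests between classes or subtypes the library is a block. There p-values measure the scatter that remains among groups of the same 3 libraries. Either spread may be technical.

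Among the members, Trpv1 is the receptor of capsaicin and noxious heat, Trpa1 that of mustard oil and other electrophiles, and Trpm8 that of menthol and cool. Trpm3 responds to heat and to the steroid pregnenolone sulfate, and Trpm2 to oxidative stress and warmth. Trpc6 and Trpc7 belong to the channels opened by diacylglycerol, a product of receptor signalling through phospholipase C. Trpv2 and Trpv4 have been tied to mechanical and osmotic stimuli, and both are also known from cells other than neurons. Within the ganglion, each class of sensory neuron carries its own set of these channels, and that set is a large part of what the neuron responds to.

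More than 1000 genes were detected in 19259 barcodes, taken as nuclei, at median depths of 3269 to 4900 unique molecular identifiers (UMIs, each marking 1 captured transcript). The libraries shared at most 1 barcode a pair. Nuclei were clustered with all TRP genes left out and named from markers, so that the 9 members had no part in making the groups. This gave 8 classes with at least 20 nuclei in each library, among them 8375 neuron-like nuclei, which held 75.8% of all UMIs. The neuron-like class carried its defining markers, Rbfox3, Snap25, Syt1 and Isl1. The 3 libraries are labelled male, yet Xist, which silences an X chromosome in female cells, stood at 1414 UMIs for each 1000000 in the adult library, against 844 and 929 in the aged ones. The Y-linked gene Ddx3y stood at 20.6, 13.2 and 7.87 on the same scale, and 3 other Y-linked genes, Uty, Kdm5d and Eif2s3y, between 0.027 and 2.73. No comparison here uses sex.

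Trpv1 and Trpm8, the heat and cold receptors, whose levels are compared within a subtype further on, are shown with the 250 bases before their RefSeq start (GRCm38.p6). Capitals mark motifs that were searched on both strands: TGTGGT, the core bound by the Runx factors known from pain neurons, in Trpv1, and TAATTA, a homeobox core, in Trpm8. The cAMP half-site TGACGT was searched too and is in neither window.
Trpv1 (chr11:73233899-73234148, plus strand): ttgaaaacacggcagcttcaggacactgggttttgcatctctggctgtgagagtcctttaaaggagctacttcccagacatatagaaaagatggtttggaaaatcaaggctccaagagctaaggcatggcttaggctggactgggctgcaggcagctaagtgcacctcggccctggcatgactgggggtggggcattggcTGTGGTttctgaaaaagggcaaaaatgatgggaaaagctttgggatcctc
Trpm8 (chr1:88306485-88306734, plus strand): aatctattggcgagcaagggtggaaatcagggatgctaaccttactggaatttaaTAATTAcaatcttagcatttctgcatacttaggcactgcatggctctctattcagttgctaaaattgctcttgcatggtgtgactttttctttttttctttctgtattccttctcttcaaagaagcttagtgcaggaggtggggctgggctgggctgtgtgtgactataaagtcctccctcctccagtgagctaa
Of 32851 promoters of this length, 14.05% held TGTGGT, 4.84% held TAATTA and 6.47% held TGACGT. A match is a description of these letters, and no match says only that they are not in this window. The RefSeq start of Trpm8 lies inside the gene as GENCODE has it. Trpv1 spans 27.0 kb of chromosome 11 and Trpm8 112 kb of chromosome 1. The longest member, Trpm3, spans 856 kb of chromosome 19 (22139046 to 22995410, plus strand) and holds the microRNA gene Mir204 in its transcribed region. The mature miR-204-5p (chr19:22750610-22750631) reads as follows, with its seed, bases 2 to 8, in capitals.
miR-204-5p: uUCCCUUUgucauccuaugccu
Nuclear RNA is rich in intronic sequence, so that longer genes may collect more UMIs per transcript, which was not tested here. Trpm3 also overlaps the opposite-strand genes Gm27151 and C330002G04Rik, and Trpc6 overlaps Gm32014, and reads in these stretches cannot be told apart without strand, which no source used here mentions for the counting.

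Most of these channels marked neurons. In UMIs per 1000000 UMIs of a class (CPM), Trpv1 stood at 78.5 in neuron-like nuclei of the adult library and at 71.3 and 81.5 in aged replicates 1 and 2, against 12.5, 17.1 and 12.9 in all other classes together. Trpm8 stood at 51.1, 59.0 and 51.7 and Trpc7 at 17.1, 17.1 and 24.2 in the neuron-like nuclei. For these 3 channels, and for Trpa1 at 13.6, 24.9 and 25.2, every neuron-like value lay above every value of the 7 other classes. Against the mean of the other classes, 7 of the 9 members were higher in neuron-like nuclei, where 33.5% of all genes tested were called higher. The log2 fold changes were 4.49 ± 0.40 (SE) for Trpc7, 4.01 ± 0.26 for Trpm8, 2.92 ± 0.23 for Trpc6, 2.90 ± 0.19 for Trpv1, 2.69 ± 0.26 for Trpa1, 2.26 ± 0.26 for Trpm2 and 1.98 ± 0.16 for Trpv2 (adjusted p from 4.1e-12 for Trpm8 to 7.3e-08 for Trpm2, quasi-likelihood test of edgeR). Genes other than TRP channels took part in the clustering, so that the background share includes genes that made the classes. Without aged replicate 1, the values of Trpm2 and Trpm8 were 3.73 and 4.76, without aged replicate 2 that of Trpc6 was 3.77, and without the adult library that of Trpa1 was 3.54. In each of these fits a class held no UMI of the gene, endothelial-like nuclei for Trpm2 and cycling nuclei for the others. The other classes are averaged on the log scale, so that such a class moves the value. Cycling nuclei held no Trpc7 UMI in any library.

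Trpv4 and Trpm3 did not follow this pattern. Trpv4 was scarce in neurons, at 1.52 CPM in the adult library against 1.60 and 1.55 in the aged ones, from 103, 66 and 47 UMIs, and 1.70 ± 0.51 lower than the other classes on the log2 scale (adjusted p = 0.0062, edgeR). This call was lost without the adult library, with a fitted value of -1.11 ± 183 (SE), in a fit where cycling nuclei held no Trpv4 UMI. Its highest levels were in endothelial-like nuclei, at 12.8, 22.3 and 57.3 CPM (log2 fold change 2.55 ± 0.39), and in immune-like nuclei, at 16.5, 21.7 and 17.4 CPM (1.99 ± 0.38). Leaving out a library moved the endothelial-like value between 1.87, without aged replicate 2, and 3.75, without the adult library, and the immune-like value was 2.89 without the adult library. Trpm3 was spread over every class, and its neuron-like level did not separate from the rest (log2 fold change -0.02 ± 0.21, adjusted p = 0.97).

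Trpm3 was highest in fibroblast-like nuclei, which are named from collagen genes and Pdgfra. They held 5043 CPM in the adult library against 2052 and 2629 in the aged ones, 1.55 ± 0.19 above the other classes on the log2 scale (adjusted p = 3.8e-07). The satellite glial cell (SGC)-like nuclei, from the glia that wrap each neuronal cell body, held 2075, 1590 and 1384 CPM (0.78 ± 0.20, adjusted p = 0.0035). Within each library the fibroblast-like value was above the SGC-like value, although the ranges overlap when the ages are pooled. The SGC-like call was lost without aged replicate 1 (0.65, adjusted p = 0.19), as was the lower Trpm3 level of endothelial-like nuclei (-0.98, adjusted p = 0.13). Neuron-like nuclei still held 64.1% of all Trpm3 UMIs, while fibroblast-like nuclei held 11.9% and SGC-like nuclei 15.9%. A smaller excess of Trpm3 in the class that carried markers of both SGCs and non-myelinating Schwann cells (0.57 ± 0.20) was lost without aged replicate 1 (0.48) or aged replicate 2 (0.48).

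Some members were higher in other classes. In immune-like nuclei, which are named from macrophage genes such as C1qa and Csf1r, Trpm2 stood at 86.3, 105 and 75.7 CPM, above the neuron-like 30.7, 30.2 and 33.3 in each library (log2 fold change over the other classes 3.62 ± 0.29, adjusted p = 1.8e-10, and 4.96 without aged replicate 1). In the fit without aged replicate 1, endothelial-like nuclei held no Trpm2 UMI. Trpv2 stood at 75.2, 67.6 and 94.1 CPM in the immune-like nuclei, a range that overlaps the neuron-like 66.6, 69.4 and 74.0 (1.89 ± 0.20). Trpc6 was higher in endothelial-like nuclei at 35.8, 28.1 and 9.55 CPM (1.95 ± 0.37), a value that was 3.21 without aged replicate 2, whose level rests on 3 UMIs. In the fit without aged replicate 2, cycling nuclei held no Trpc6 UMI. The endothelial-like cluster also carried Rgs5 and Notch3, markers of mural cells, and mural-like nuclei, too few to be compared, held 496 to 1478 CPM of Trpc6. Their part in the endothelial-like level was not tested. When nuclei were assigned one by one from markers, the endothelial-like differences turned, to -0.17 for Trpc6 and 0.23 for Trpm3. Over the 7 other classes, 12 of 63 member tests were called in either direction, against 29.1% of all gene tests there. The called differences that were lower were those of Trpm3 in immune-like and endothelial-like nuclei and of Trpv2 in myelinating Schwann cell-like nuclei (-1.04 ± 0.26) and in the class with markers of 2 glial types (-0.99 ± 0.29). The latter was lost without the adult library (-0.80) or aged replicate 1 (-0.97).

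**Figure D1:**
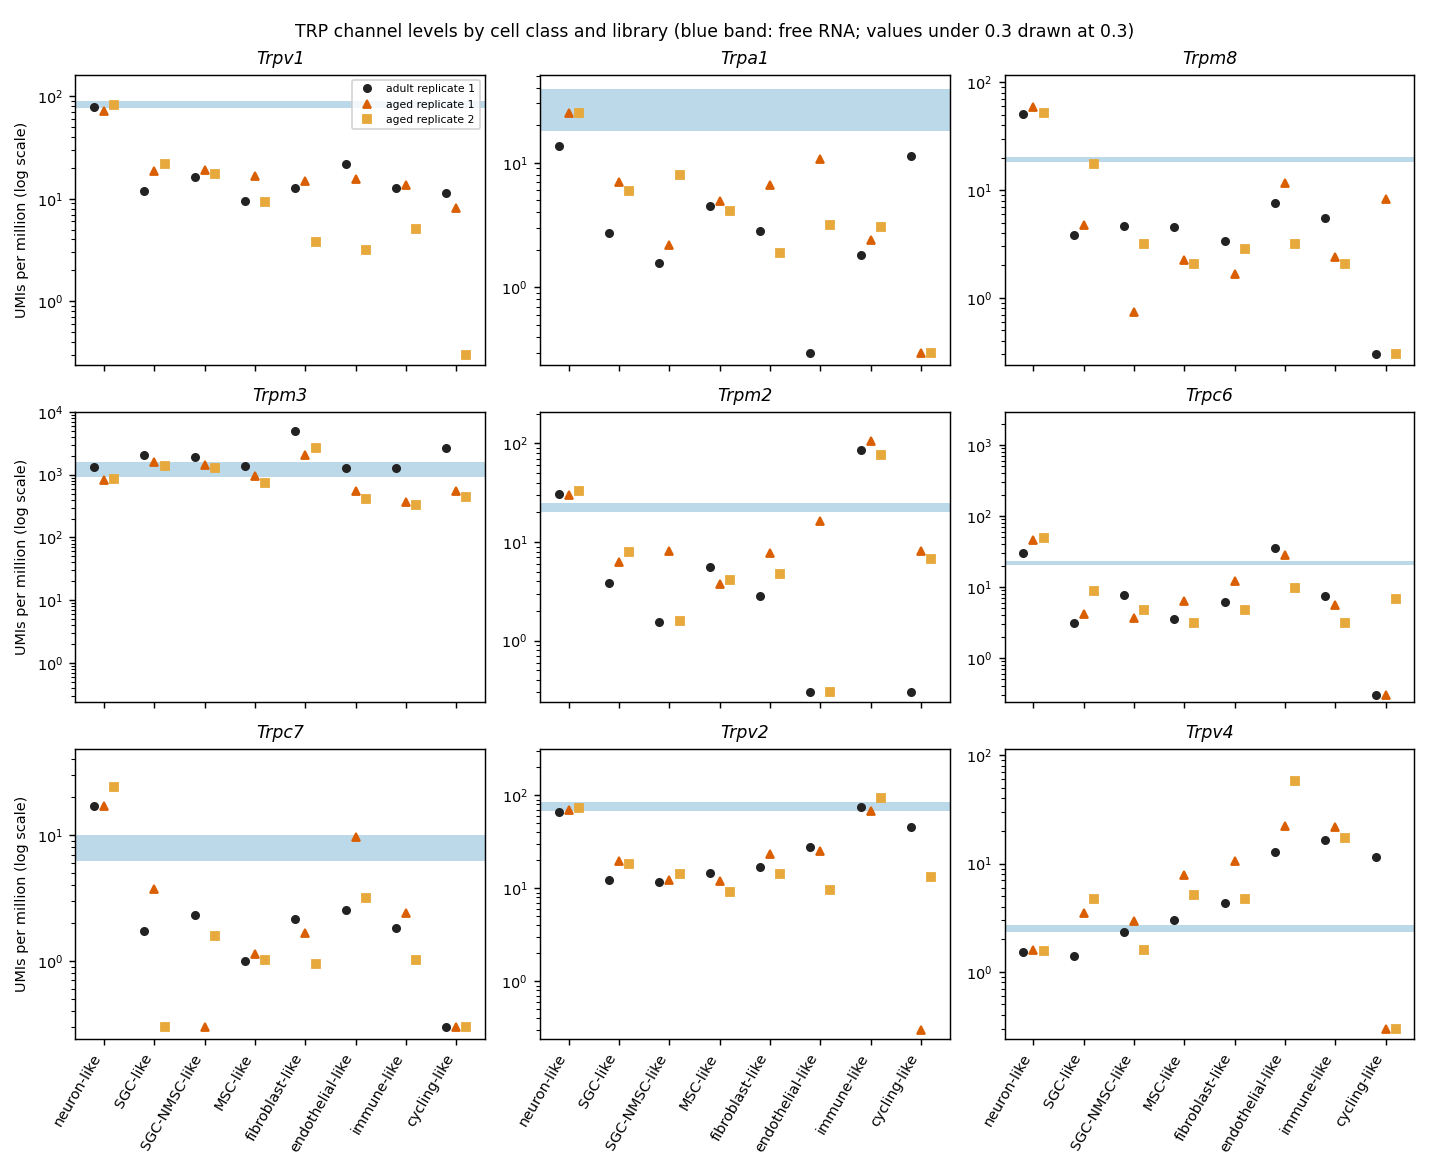
Level of each TRP channel in 8 cell classes, as CPM on a log axis, with 1 point per library (black circles adult, orange triangles and yellow squares aged) and a blue band from the lowest to the highest level in free RNA of the 3 libraries; values under 0.3 are drawn at 0.3. The neuron-like points of Trpv1, Trpm8 and Trpc7 sit above all others, those of Trpm2 sit under the immune-like points, and the highest Trpm3 points are fibroblast-like.

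RNA outside nuclei was measured in barcodes of 10 to 100 UMIs. There Trpv1 stood at 81.6, 76.3 and 89.9 CPM, Trpm8 at 20.2, 18.2 and 18.7, and Trpm3 at 1590, 959 and 929, so that free RNA held these transcripts in every library. Trpa1 stood there at 17.9, 28.5 and 39.2 CPM and Trpv2 at 67.3, 70.4 and 84.5. For Trpv1, Trpa1, Trpv2, Trpm3 and Trpv4, free RNA lay above the neuron-like level in each library. For the other members it lay below. The shares of nuclei with a UMI of a channel have to be read against it. Trpv1 was seen in 25.8%, 23.5% and 29.0% of neuron-like nuclei at medians of 7346, 5606 and 7641 UMIs. It was also seen in 3.48%, 3.78% and 2.15% of immune-like nuclei, at medians of 2196, 3220 and 3549. After each nucleus was thinned to 1000 UMIs the shares were 7.19%, 5.13% and 6.65% against 1.49%, 1.72% and 0 of 233 nuclei. A count of 0 of 233 allows a share of up to 1.57% (exact upper limit, counting error only). Free RNA made up an estimated 26.3%, 9.84% and 6.90% of the UMIs of immune-like nuclei, against 5.39%, 3.58% and 2.88% in neuron-like nuclei, and its part in these shares was not tested.

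The neuron subtypes carried different sets of channels. The neuron-like nuclei were clustered again, without TRP genes, into 9 subtypes with at least 20 nuclei in each library. Of these, 7 took names from markers, and 2 are called by their leading genes, Kcnt2/Chrna7 and Htr3a/Chp2. The latter carried 4 markers of peptidergic A-fibers (Bmpr1b, Calca, Hapln4 and Nefh) and 3 of peptidergic C-fibers, none of them among its leading genes. Of 81 member tests against the mean of the other subtypes, 28 were higher and 30 lower, or 71.6%, where 22.5% of all gene tests were called higher and 18.4% lower. By subtype, 6 members were higher in peptidergic C-like nuclei, from neurons that release neuropeptides, 5 each in Mrgprd nonpeptidergic-like and Sst itch-like nuclei, and 4 in cold-like nuclei. A-fiber-like nuclei, from large myelinated touch and position-sense neurons, were lower in 7 members and higher in Trpm2 alone (0.58 ± 0.13). C-LTMR-like nuclei, from C-fiber touch neurons, were lower in 6 and higher in Trpv2 and Trpv4.

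Of the 58 calls by subtype, 12 were lost when a library was left out. Without the adult library these were the lower Trpm8 (-0.78) and Trpv2 (-0.12) of A-fiber-like nuclei, the higher Trpv2 (0.23) of C-LTMR-like nuclei and the lower Trpm8 of Mrgpra3 itch-like nuclei (-1.06), as well as the lower Trpv4 of Htr3a/Chp2 nuclei. Without aged replicate 1 they were Trpa1 (-0.93) and Trpm3 (-0.42) in Htr3a/Chp2 nuclei, Trpm8 (-2.69) and Trpc7 (-2.98) in Mrgpra3 itch-like nuclei and Trpm3 (0.48) in Mrgprd nonpeptidergic-like nuclei. Without aged replicate 2 they were Trpc7 in A-fiber-like nuclei (-1.25), Trpv2 in C-LTMR-like nuclei (0.32) and Trpm3 in Htr3a/Chp2 nuclei (-0.29). The call of Trpv4 in Mrgprd nonpeptidergic-like nuclei (1.13) was lost without any 1 of the libraries, at 1.498, 1.03 and 1.10, and that in Sst itch-like nuclei (1.98) without the adult library (1.78) or aged replicate 1 (2.08).

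Trpv1, the heat receptor, was highest in 4 subtypes. In peptidergic C-like nuclei it stood at 351 CPM in the adult library against 279 and 311 in the aged ones, and in cold-like nuclei at 382, 281 and 267. Most Trpv1 UMIs of the cold-like nuclei lay in the smaller set of them without a Trpm8 UMI, described further on, and those with one held 104, 127 and 105 CPM. These ranges overlap, and their log2 fold changes over the other subtypes were 2.81 ± 0.10 and 2.80 ± 0.11. Sst itch-like nuclei followed with 192, 231 and 203 CPM (2.12 ± 0.14), and Mrgpra3 itch-like nuclei with 159, 144 and 132 (1.61 ± 0.14). Both itch subtypes lay apart from their neighbours in the order. The other subtypes lay between 6.50 CPM in A-fiber-like nuclei of aged replicate 1 and 62.2 in Htr3a/Chp2 nuclei of the adult library. Peptidergic C-like nuclei held 57.0% of the Trpv1 UMIs of these neurons and 13.7% of their UMIs in all. A Trpv1 UMI was seen in 86.2%, 80.2% and 83.4% of peptidergic C-like nuclei and in 8.85%, 6.50% and 8.02% of A-fiber-like nuclei, whose median depths were 12145, 11011 and 30603 against 7075, 5335 and 6722 UMIs. Thinned to 1000 UMIs, the shares were 30.8%, 23.3% and 31.8% against 1.49%, 0.755% and 1.53%.

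Trpm8, the cold receptor, was far higher in 1 subtype than in the rest. Cold-like nuclei, which were named from Foxp2, Cdh8, Penk, Gpr26 and Rxfp1 without use of any channel, held 1167, 1217 and 1032 CPM. The next subtypes, peptidergic C-like with 19.3, 39.8 and 36.3 CPM and Kcnt2/Chrna7 with 20.4, 33.3 and 39.3, overlapped each other, and their own log2 fold changes of 1.44 ± 0.29 and 1.57 ± 0.30 were 2.18 and 2.27 without the adult library. The cold-like excess was 7.30 ± 0.20 on the log2 scale (adjusted p = 4.4e-20, edgeR). Cold-like nuclei held 78.9% of neuronal Trpm8 UMIs with 3.67% of all UMIs. A Trpm8 UMI was found in 112 of 146, 52 of 68 and 31 of 43 cold-like nuclei, or 76.7%, 76.5% and 72.1%, at medians of 15354, 14440 and 23556 UMIs. In A-fiber-like nuclei the shares were 4.47%, 2.87% and 1.91%. After thinning they were 45.9%, 50% and 44.2% against 0.186%, 0.906% and 0 of 262 nuclei, where the exact interval reaches 1.40%.

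Trpa1, the irritant receptor, was highest in Mrgprd nonpeptidergic-like nuclei, from skin-innervating C-fibers, at 40.05, 59.8 and 56.0 CPM (2.50 ± 0.13). Peptidergic C-like nuclei held 22.7, 40.1 and 32.1 CPM (1.55 ± 0.15), and within each library the nonpeptidergic value was the higher. All neighbours in the order of its levels overlapped when the libraries were pooled, down to A-fiber-like nuclei at 2.81, 4.30 and 2.47 CPM. Free RNA held 17.9, 28.5 and 39.2 CPM of Trpa1, which the nonpeptidergic value exceeded in each library and the peptidergic value in the adult library and aged replicate 1.

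The diacylglycerol-gated channels Trpc6 and Trpc7 were highest in different subtypes. Trpc6 stood at 121, 157 and 162 CPM in Mrgprd nonpeptidergic-like nuclei (3.89 ± 0.12), at 96.6, 97.8 and 100.1 in Mrgpra3 itch-like nuclei (3.18 ± 0.17) and at 63.8, 83.2 and 93.03 in Sst itch-like nuclei (2.73 ± 0.20). No value of the other 6 subtypes exceeded 18.4 CPM. Trpc7 stood at 68.8, 67.9 and 82.5 CPM in peptidergic C-like nuclei (4.26 ± 0.19) and at 40.3, 65.7 and 83.1 in Kcnt2/Chrna7 nuclei (4.18 ± 0.20, and 4.98 without the adult library), and no value of the other 7 subtypes compared exceeded 10.4. In the 3 subtypes with the most Trpc6, Trpc7 did not exceed 6.48 CPM, and over the 27 subtype and library points their log2 levels had a Pearson correlation of -0.60. These points share 3 libraries and are not independent.

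Trpm2 and Trpv2 were graded. Trpm2, the channel of oxidative stress, fell in steps from Sst itch-like nuclei (116, 163 and 202 CPM, 2.72 ± 0.14) through cold-like (81.8, 71.2 and 87.6, 1.67 ± 0.14) to peptidergic C-like nuclei (53.3, 56.4 and 62.2, 1.10 ± 0.12), and its lowest mean level was in Mrgprd nonpeptidergic-like nuclei, at 5.68, 4.67 and 4.47 CPM. Apart from the last pair of subtypes, no neighbours in this order overlapped. The cold-like nuclei with a Trpm8 UMI alone, at 58.9, 45.7 and 67.6 CPM, overlapped the peptidergic C-like nuclei. Trpv2 was highest in Mrgprd nonpeptidergic-like nuclei (118, 111 and 110 CPM, 0.94 ± 0.10), ahead of Sst itch-like and cold-like nuclei, whose means of 103 and 102 overlapped. Its lowest mean was 34.9 in Kcnt2/Chrna7 nuclei, and every subtype carried it. Trpv4 was near 0 in most subtypes and highest in C-LTMR-like nuclei, at 5.44, 6.90 and 7.74 CPM from 45, 19 and 26 UMIs (3.59 ± 0.31, adjusted p = 1.0e-09). Htr3a/Chp2 nuclei held no Trpv4 UMI in any library.

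Trpm3 was present in all subtypes and highest in peptidergic C-like nuclei, at 2295, 1698 and 1757 CPM (1.12 ± 0.13). Mrgpra3 itch-like nuclei held 2020, 1034 and 1204 CPM, and the lowest levels were in A-fiber-like nuclei, at 782, 333 and 280 (-1.23 ± 0.16), and in C-LTMR-like nuclei, at 844, 324 and 286 (-1.16 ± 0.16). When the libraries are pooled the ranges of neighbours overlap all along the order, since the adult value was the highest in each subtype. Levels of different genes are not directly comparable, and how UMIs scale with gene span was not tested. Division by span assumes that they are proportional to it. Per kb of gene span, the mean neuron-like level was 2.86 ± 0.19 (SD, n = 3) CPM for Trpv1, 2.69 ± 0.14 for Trpv2 and 1.16 ± 0.31 for Trpm3, whereas without that division Trpm3 ranked first with a mean of 997 CPM. Trpc7 had 0.16 ± 0.03 and Trpv4 0.043 ± 0.001 per kb.

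**Figure D2:**
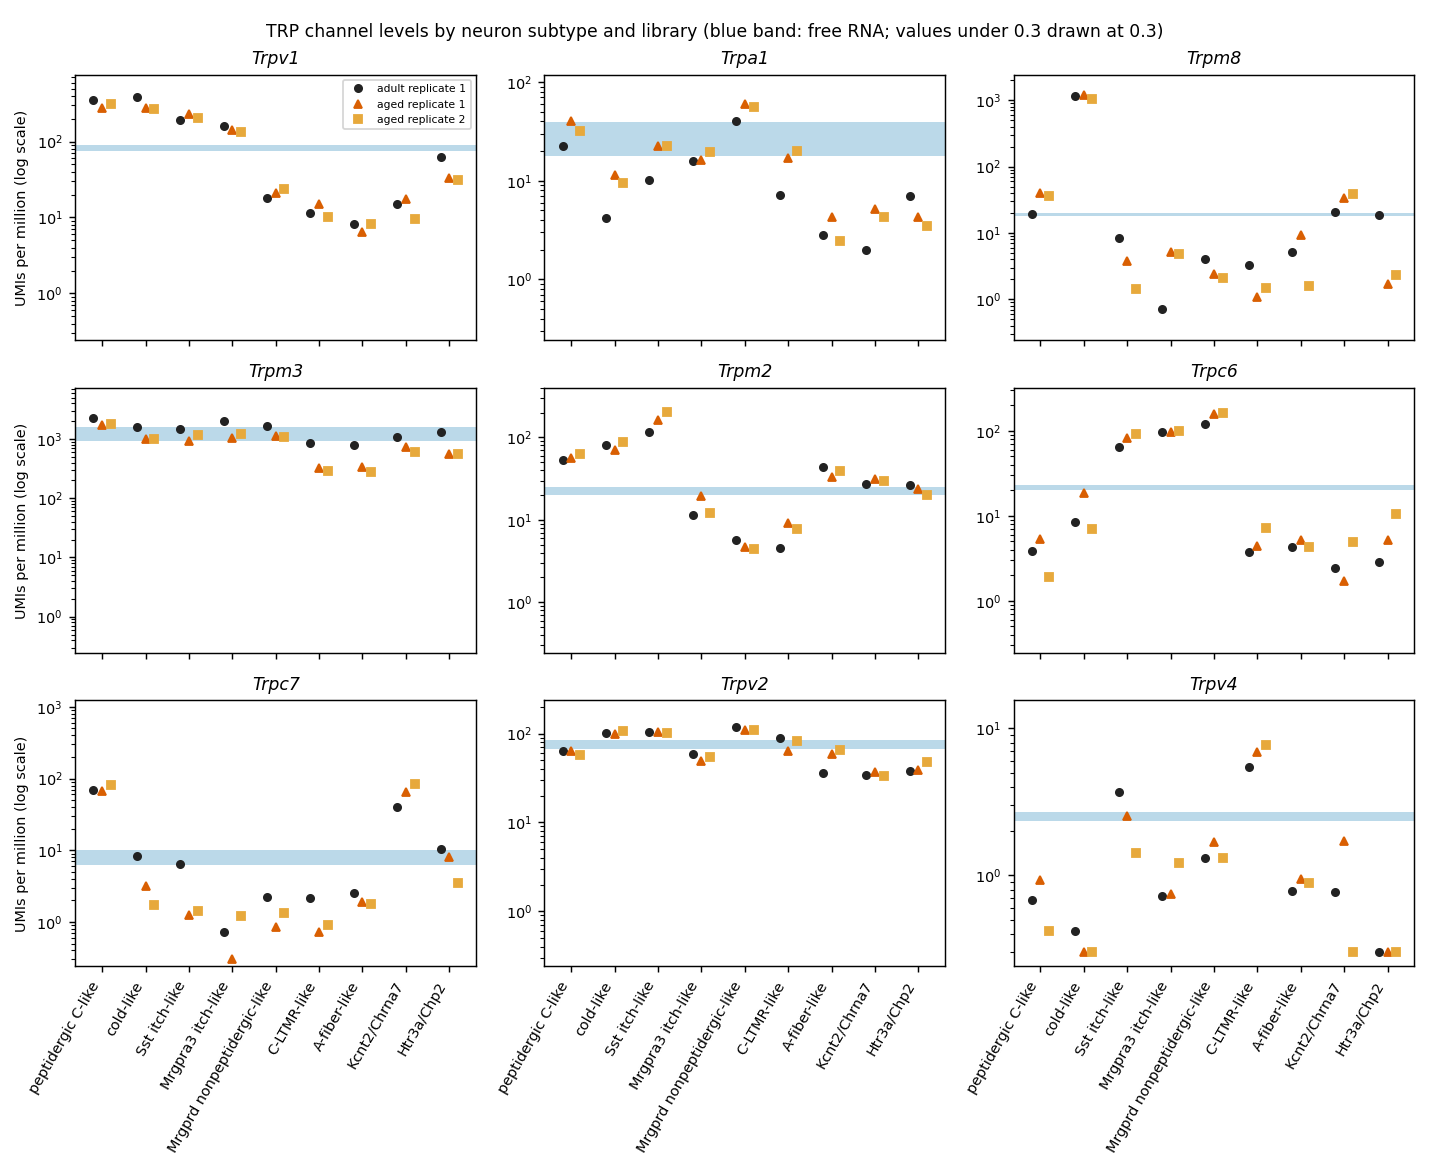
Level of each TRP channel in 9 neuron subtypes, as CPM on a log axis, with 1 point per library (black circles adult, orange triangles and yellow squares aged) and a blue band for the range in free RNA; values under 0.3 are drawn at 0.3. Trpm8 stands alone in cold-like nuclei, Trpc6 and Trpc7 are highest in different subtypes, and the Trpm3 circle of the adult library lies above both aged points in each of the 9 subtypes.

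Cold-like nuclei held Trpv1 at levels that overlapped those of peptidergic C-like nuclei, and within them Trpv1 was higher in nuclei without Trpm8. In the cold-like nuclei with a Trpm8 UMI (112, 52 and 31), Trpv1 stood at 104, 127 and 105 CPM. In those without one (34, 16 and 12), it stood at 1438, 1051 and 1253 CPM, above every subtype mean. The share of nuclei with a Trpv1 UMI was 82.4%, 56.3% and 83.3% without Trpm8 against 42.0%, 57.7% and 41.9% with it, so that aged replicate 1 did not show the difference in shares. The 95% Poisson intervals, which cover counting error only, were apart in each library, the closest being 109 to 148 against 931 to 1183 in aged replicate 1. In the adult library the 2 sets were of like depth, with medians of 15350 and 14280 UMIs, while in the aged libraries the nuclei without Trpm8 were shallower, at 3480 against 15820 and 4958 against 26510 UMIs. The sets were defined by a channel, no test was made, and the part of depth was not tested.

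The 5 markers behind the name of this subtype were compared between the same sets, a comparison chosen after their values were seen. Rxfp1, a relaxin receptor, stood at 692, 1063 and 670 CPM in cold-like nuclei without Trpm8 and at 43.5, 22.9 and 31.3 in those with it. Foxp2, Gpr26 and Cdh8 went the other way. Without Trpm8 Foxp2 stood at 400, 195 and 240 against 805, 906 and 872 CPM, Gpr26 at 48.3, 45.9 and 105 against 160, 199 and 207, and Cdh8 at 451, 164 and 252 against 1170, 1003 and 1128. Penk did not follow one direction, at 6.03, 42.05 and 12.3 CPM without Trpm8, from 3, 11 and 2 UMIs, and at 21.7, 82.3 and 5.05 with it. Trpm2 too was higher without Trpm8, at 169, 199 and 209 against 58.9, 45.7 and 67.6 CPM, while Trpm3 was at 1342, 845 and 836 against 1659, 1028 and 1025. These are sums over sets of nuclei. In peptidergic C-like nuclei the difference was smaller and in the same direction, with Trpv1 at 295, 247 and 289 CPM in nuclei with Trpm8 and at 369, 297 and 330 in those without. Their intervals were apart in the adult library and aged replicate 1 and overlapped in aged replicate 2. The share of these nuclei with a Trpv1 UMI went the other way, at 96.8%, 91.3% and 100% with Trpm8 against 84.25%, 77.4% and 75.2% without. The nuclei with Trpm8 were deeper, at medians of 21770, 45590 and 42520 against 7324, 6738 and 7620 UMIs, and the part of depth was not tested.

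**Figure D3:**
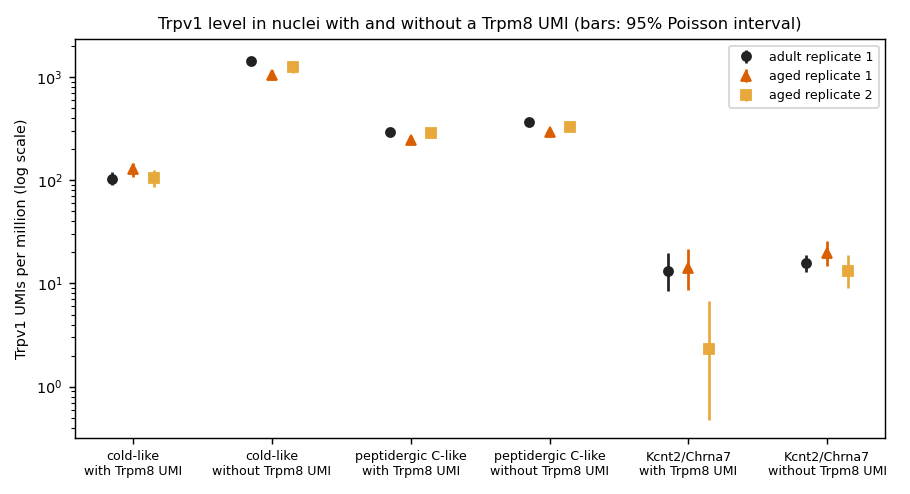
Trpv1 level, as CPM on a log axis, in nuclei with and without a Trpm8 UMI in 3 neuron subtypes, 1 point per library with its 95% Poisson interval. In cold-like nuclei the level is between 104 and 127 with Trpm8 and between 1051 and 1438 without, and in peptidergic C-like nuclei the sets lie between 247 and 369.

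Across all neuron-like nuclei, pairs of channels were met in the deeper nuclei. Of nuclei with a Trpm8 UMI, 49.1%, 52.7% and 58.3% also held Trpv1, against 23.6%, 21.2% and 25.5% of nuclei without Trpm8, but the former had medians of 20269, 33442 and 42600 UMIs and the latter of 6407, 5164 and 6414. After thinning to 1000 UMIs, the shares were 6.19%, 3.92% and 3.57% with Trpm8 and 7.21%, 5.15% and 6.72% without. The pair Trpa1 and Trpc6 was seen within Mrgprd nonpeptidergic-like nuclei, where 71.2%, 62.7% and 69.7% of nuclei with Trpa1 held Trpc6, against 37.8%, 25.9% and 33.3% of those without. Here too the nuclei with Trpa1 were deeper, at 25703, 19300 and 33944 against 3635, 3214 and 3306 UMIs. Under thinning to 1000 UMIs, all 3 pair results followed over the settings moved. The thinned share of this pair is not given here. In peptidergic C-like nuclei, 93.6%, 92.5% and 95% of those with Trpa1 held Trpv1, a channel seen in most nuclei of this subtype, as given above. Depth was not matched here either.

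The genes whose levels over the 27 points were most like those of a member were named by their Pearson correlation among 12315 genes, as a description. For Trpv1 these were Gfra3 (0.92), the artemin co-receptor, Samd9l and Syt10. For Trpm8 they were Zfp536 (0.91), Rxfp1 (0.90) and Adamts16 (0.89), and for Trpv2 they were Runx1 (0.89), a transcription factor of pain neurons, Nectin1 and Ldb2. Trpm2 was most like Rgs12 (0.95), Adcy2 and Herc1, and Trpa1 most like Ptprt (0.91), Srsf9 and Tm7sf3. Trpc6 was most like A3galt2 (0.97), Gm32633 and Mboat1, and Trpc7 most like Kit (0.95), Cacna1e and Zeb2. Trpm3 had its closest genes in Mettl7a1 (0.85), Zbtb20 (0.80) and Zcchc9. Trpv4, with 216 neuronal UMIs, was most like Fam122b (0.89), Cdh9 and Fam241a. Rxfp1 is a naming marker of cold-like nuclei, and Cdh9 is one of C-LTMR-like nuclei. Their likeness to Trpm8 and Trpv4 over subtypes is therefore partly built in. Within cold-like nuclei, Rxfp1 was higher in those without Trpm8 than in those with it, as given above.

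The rest of the TRP family gave further subtype patterns. Of 19 listed genes 12 were tested by class, of which 6 were higher in neuron-like nuclei and 3 lower, while 3 were not called. Of all genes tested, 33.5% were called higher and 26.7% lower. Among the higher ones were Trpc4 (log2 fold change 3.45 ± 0.48), a receptor-operated channel, Trpc1 (2.16 ± 0.14), Trpc5 (1.78 ± 0.20) and Trpm4 (1.02 ± 0.17). Pkd2 (-0.73 ± 0.13), Trpm7 (-0.47 ± 0.16) and Mcoln3 (-1.90 ± 0.81) were lower. By subtype 11 were tested. Trpm6, a magnesium channel, was 5.40 ± 0.18 higher in Sst itch-like nuclei, and Trpc4 was 2.69 ± 0.20 higher in cold-like nuclei. Of the 99 tests of these genes by subtype, 33 were called higher and 28 lower, where 22.5% and 18.4% of all gene tests were.

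The comparison of ages asks how the channels of these neurons stand in old ganglia. In all neuron-like nuclei, Trpm3 fell from 1304 CPM in the adult library to 835 and 852 in the aged ones, and Trpa1 rose from 13.6 to 24.9 and 25.2. Mrgprd nonpeptidergic-like nuclei, which held 55.7% of neuronal Trpa1 UMIs, made up 19.2% of the UMIs of neuron-like nuclei in the adult library against 22.9% and 25.0% in the aged ones, and the part of this make-up was not tested. Both aged libraries lay on the same side of the adult value and close to each other. The log2 fold changes were -0.75 ± 0.23 (adjusted p = 0.016) and 0.76 ± 0.24 (adjusted p = 0.020, edgeR with 1 residual degree of freedom, the lone adult library being assumed to vary like the aged ones). These were 2 of 9 members, where 8.91% of all genes tested were called. The other 7 members had fitted values between -0.16 ± 0.23 for Trpv1 and 0.56 ± 0.23 for Trpc6. Trpc6 stood at 29.7 CPM in the adult library against 46.0 and 49.3 in the aged ones (adjusted p = 0.12), and it was called without the clusters of low Malat1 (0.59, adjusted p = 0.042). DESeq2 called Trpm3 (adjusted p = 0.021) but not Trpa1 (0.096), and with all nuclei thinned to 1000 UMIs neither passed, at -0.85 (adjusted p = 0.13) and 0.44 (adjusted p = 0.65).

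Trpm3 was lower in the aged libraries in each of the 9 subtypes, and 8 of these falls were called, all but that in Sst itch-like nuclei (1456 CPM to 909 and 1180, -0.62 ± 0.46). The largest were in C-LTMR-like nuclei (844 to 324 and 286, -1.62 ± 0.25) and A-fiber-like nuclei (782 to 333 and 280, -1.59 ± 0.21), and the smallest called one in peptidergic C-like nuclei (2295 to 1698 and 1757, -0.56 ± 0.19, adjusted p = 0.045). DESeq2 called 6 of these falls, all but those in cold-like (adjusted p = 0.45) and peptidergic C-like nuclei (0.16). With DESeq2's size factors in edgeR, those in Mrgprd nonpeptidergic-like (0.096) and peptidergic C-like nuclei (0.065) were lost. With nuclei assigned one by one from markers, the falls in Mrgprd nonpeptidergic-like (0.062), cold-like (0.45) and peptidergic C-like nuclei (0.12) were lost, and thinning lost these 3 and that in Mrgpra3 itch-like nuclei. With a minimum of 2000 genes the peptidergic C-like fall was lost (0.069). A-fiber-like and C-LTMR-like nuclei each joined several clusters, 1 of them of low Malat1. In A-fiber-like nuclei it held 227 of 1073 adult nuclei against 310 of 662 and 103 of 262 aged ones. In C-LTMR-like nuclei it held 124 of 557 against 48 of 134 and 38 of 142. Mrgprd nonpeptidergic-like nuclei also joined several clusters, 1 of them with 8564 CPM of Malat1 against 27403 and 26884 in the others. This cluster was not under the limit for low Malat1, so that it was never left out. It held 220 of 897 adult nuclei against 259 of 529 and 115 of 340 aged ones. Without the clusters of low Malat1, which include the whole Htr3a/Chp2 subtype, the 8 member calls within the other 8 subtypes stood. The rest of the mix was not tested. The fall of Trpm3 was also found outside neurons. Trpm3 was lower in both aged libraries in each of the 7 other classes, and 6 of these falls were called. Among them it went from 5043 to 2052 and 2629 CPM in fibroblast-like nuclei (-1.20 ± 0.14), from 2075 to 1590 and 1384 in SGC-like nuclei (-0.67 ± 0.17) and from 1299 to 363 and 328 in immune-like nuclei (-1.88 ± 0.14). Of the 6 calls, those in SGC-like nuclei (adjusted p = 0.081) and in cycling nuclei (0.092) were lost with marker assignment, the former also without the low-count filter and the latter also with DESeq2 and thinning. The fall in endothelial-like nuclei, from 1260 to 555 and 407 CPM, was not called (-1.43 ± 0.45, adjusted p = 0.083).

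**Figure D4:**
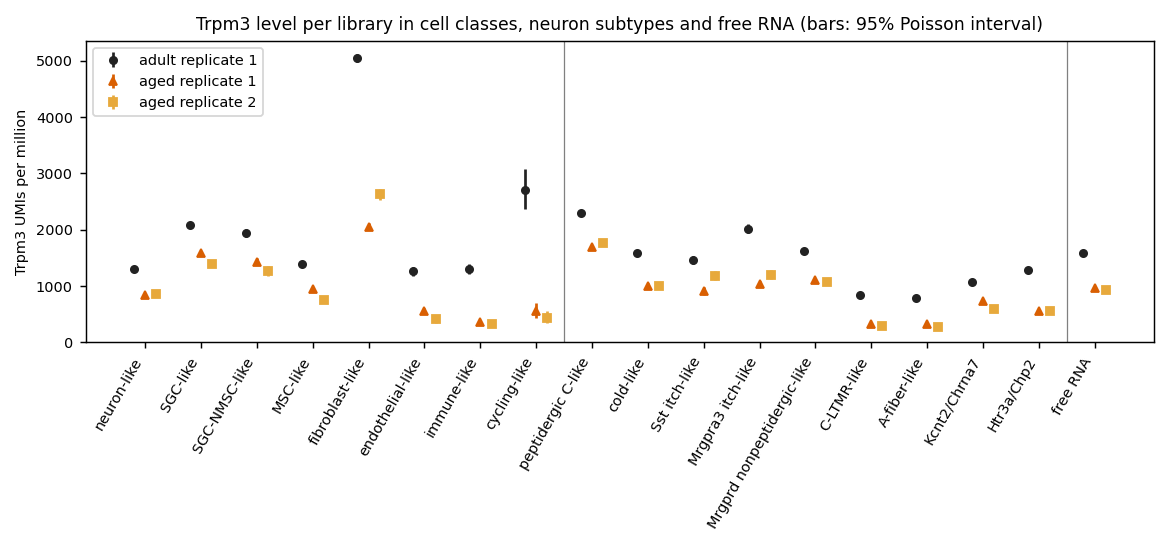
Trpm3 level, as CPM, in 8 cell classes, 9 neuron subtypes and free RNA, 1 point per library with its 95% Poisson interval (black circles adult, orange triangles and yellow squares aged). The adult value is the highest in every group, from 5043 in fibroblast-like nuclei to 782 in A-fiber-like nuclei, and free RNA moves the same way, from 1590 to 959 and 929.

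Other measures moved with the libraries in the same direction. Free RNA held 1590 CPM of Trpm3 in the adult library against 959 and 929 in the aged ones. Malat1, an abundant RNA that stays in the nucleus, was 4.31% of the UMIs of neuron-like nuclei in the adult library against 1.34% and 1.55% in the aged ones, and in SGC-like nuclei it was 8.72%, 2.04% and 2.21%. The 230 genes that span 500 kb or more, as Trpm3 does, had a median log2 age difference of -0.27 in neuron-like nuclei, against 0.01 for all genes. Of these long genes 30 were called lower and none higher, where 8.91% of all genes tested were called in either direction. In A-fiber-like nuclei the median of long genes was -0.48, with 67 called lower and 0 higher. In SGC-like nuclei, where Trpm3 fell as well, it was -0.02, with 39 called lower and 40 higher. The Trpm3 difference in neuron-like nuclei was -0.76 (adjusted p = 0.0093) with the expected free RNA subtracted and -0.70 (adjusted p = 0.0082) without the clusters of low Malat1. The part of gene length was not tested.

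Within subtypes, 11 of 69 member tests were called, 10 lower and 1 higher, or 15.9%, where 4.53% of all gene tests were called. Trpm3 made up 8 of them. Trpm8 was higher in aged peptidergic C-like nuclei, at 39.8 and 36.3 CPM against 19.3 (0.83 ± 0.24, adjusted p = 0.016). This call was lost with a minimum of 2000 genes per nucleus (0.81, adjusted p = 0.062), with DESeq2 (0.83, adjusted p = 0.58) and with nuclei assigned one by one from markers (0.31, adjusted p = 0.72), and after thinning the gene did not pass the filter on low counts. In Htr3a/Chp2 nuclei, which stood apart by their low Malat1 share (0.65% in the adult library), Trpm8 fell from 18.4 CPM to 1.72 and 2.33, from 39, 4 and 2 UMIs (-3.33 ± 0.64, adjusted p = 0.0079), and Trpv1 from 62.2 to 33.5 and 31.5 (-1.03 ± 0.25, adjusted p = 0.044). DESeq2 called neither, and the Trpv1 call was also lost with free RNA subtracted (-1.13, adjusted p = 0.072). In the cold-like nuclei themselves, Trpm8 did not pass, at 1167 CPM against 1217 and 1032 (-0.25 ± 0.20). The mean of the 2 aged CPM values was 0.964 of the adult one. CPM are scaled by total UMIs and fitted values by normalization factors of edgeR, so that the 2 scales can differ. Trpv1 in peptidergic C-like nuclei did not pass either, at 351 against 279 and 311 CPM (-0.40 ± 0.19).

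Trpa1, which rose in neurons as a whole, was above its adult level in both aged libraries in 7 of the 9 subtypes but was called in none of them. Its values were 22.7 against 40.1 and 32.1 CPM in peptidergic C-like nuclei (0.52 ± 0.24, adjusted p = 0.20), 40.05 against 59.8 and 56.0 in Mrgprd nonpeptidergic-like nuclei (0.42 ± 0.23, adjusted p = 0.28) and 7.25 against 17.1 and 19.95 in C-LTMR-like nuclei (1.21 ± 0.40, adjusted p = 0.075). The mix of clusters in Mrgprd nonpeptidergic-like nuclei, given above, differed between the libraries, and its part in the Trpa1 value was not tested. In free RNA Trpa1 went from 17.9 to 28.5 and 39.2 CPM, in the same direction. With the expected free RNA subtracted, the difference in neurons was 0.75 (adjusted p = 0.030). None of 81 tests found that the age effect of a member in a subtype differed from the mean of the other subtypes, where 0.0631% of all gene tests were called. An unadjusted p under 0.05 (edgeR) was met in 16 of the 81 member tests, against 8649 of 141084 tests of all genes. DESeq2 called 2 of the 81, Trpv2 in A-fiber-like nuclei (36.4 CPM against 59.4 and 65.2) and Trpm8 in Htr3a/Chp2 nuclei (both at an adjusted p of 0.049). The former was also called with free RNA subtracted and the latter without the low-count filter. The mix of clusters in A-fiber-like nuclei, given above, also differed between the libraries, and its part was not tested. With edgeR as used for the other tests, a larger fall in 1 subtype than in the others is thus not shown.

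**Figure D5:**
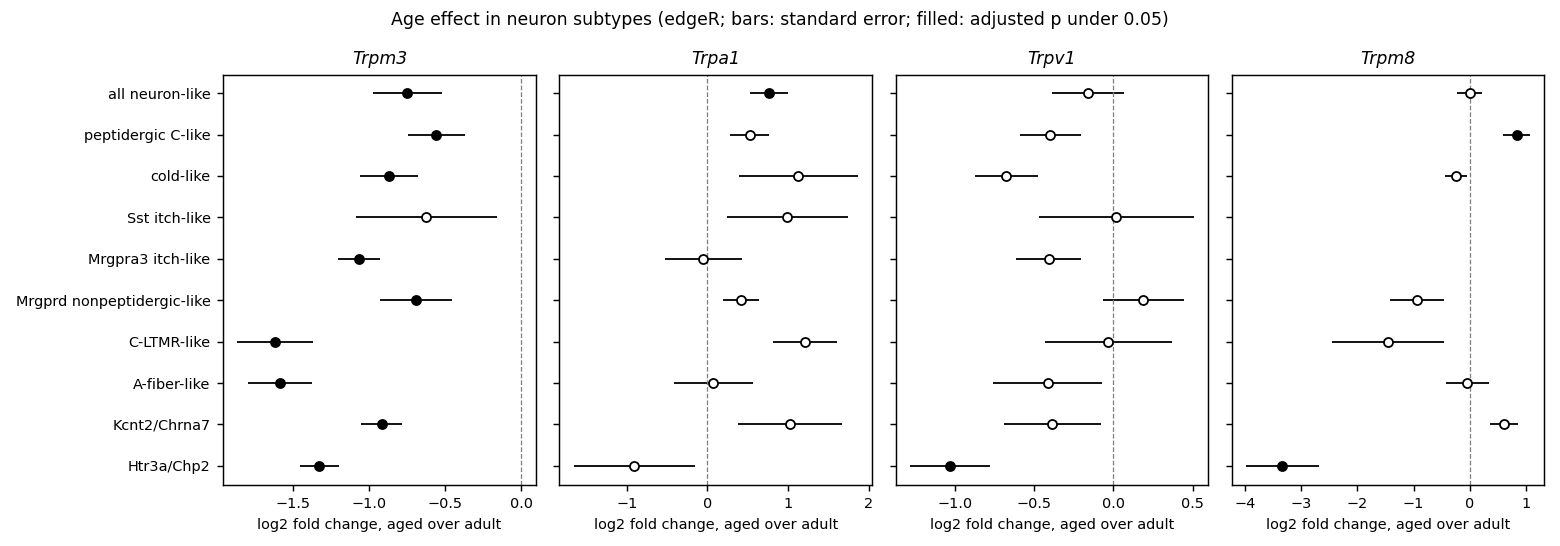
Log2 fold change of aged over adult for Trpm3, Trpa1, Trpv1 and Trpm8 in all neuron-like nuclei and in 9 subtypes, with standard errors from edgeR; filled points have an adjusted p under 0.05, and a missing point means that the gene did not pass the filter on low counts. Each Trpm3 point lies below 0 and 9 of its 10 are filled, while Trpa1 is filled only for all neuron-like nuclei.

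In the classes outside neurons, 7 of 38 member tests were called, where 8.63% of all gene tests were. Of these 6 were the falls of Trpm3, and 1 was a rise. With free RNA subtracted 25 tests could be made, of which 6 were called higher and 7 lower, or 52%. Of all gene tests of that fit, 9.14% were called. The estimated free share was larger for the adult library than for both aged ones, except in cycling nuclei (12.2%, 8.35% and 12.9%). The part of these unequal shares in the calls was not tested. The rise was a higher Trpm8 level in SGC-like nuclei, at 3.79 CPM in the adult library against 4.71 and 17.3 in the aged ones (1.19 ± 0.41, adjusted p = 0.025). It rests on aged replicate 2, with a fitted value of 0.13 without it and 2.02 without aged replicate 1. It was lost with a minimum of 2000 genes per nucleus (1.46, adjusted p = 0.12), with DESeq2 (1.32, adjusted p = 0.53), without the low-count filter (1.17, adjusted p = 0.58) and with nuclei assigned one by one from markers (0.41, adjusted p = 0.69). Free RNA held 20.2, 18.2 and 18.7 CPM of Trpm8, and with it subtracted the difference was 2.52 (adjusted p = 0.00017, edgeR). The estimated free share subtracted from SGC-like nuclei was 12.6% for adult, 4.97% for aged replicate 1 and 5.23% for aged replicate 2. More was thus taken from the adult level, and the part of this in the value of 2.52 was not tested.

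Among 19 genes that act with TRP channels, 18 were tested with age in neuron-like nuclei. Ano1, a calcium-activated chloride channel that couples to Trpv1, fell (-1.0 ± 0.22, adjusted p = 0.00019), Hrh1, the histamine receptor upstream of it, rose (0.90 ± 0.30, adjusted p = 0.030), and 16 were not called, so that 11.1% were called where 8.91% of all genes tested were. Within subtypes, 15 falls and no rise were called in 140 tests of these genes, or 10.7%, where 4.53% of all gene tests were called. Il31ra, the receptor of the itch cytokine interleukin-31, made up 6 of them, in peptidergic C-like nuclei for example (-0.97 ± 0.19, adjusted p = 2.8e-05). It was also found outside neurons, at 476 CPM in the adult library against 294 and 302 over all other classes, beside 473 against 353 and 315 in neuron-like nuclei, where it did not pass (-0.62 ± 0.22, adjusted p = 0.057). Calca, which encodes the neuropeptide CGRP, fell in peptidergic C-like nuclei (-1.03 ± 0.19) and in Htr3a/Chp2 nuclei (-0.93 ± 0.13). Ano1 fell in A-fiber-like nuclei (-0.97 ± 0.22). The largest cluster joined as A-fiber-like, with Ano1 first among its leading genes, held 434 of 1073 adult nuclei against 184 of 662 and 61 of 262 aged ones. Hrh1 was a leading gene of Mrgpra3 itch-like nuclei. These made up 2.05% of the UMIs of neuron-like nuclei in the adult library against 3.25% and 2.69% in the aged ones. The part of this make-up in the age values of Ano1 and Hrh1 was not tested. Of the other TRP genes none of 16 was called with age in neuron-like nuclei, while within subtypes 2 of 93 tests were called (2.15%, against the 4.53% of all gene tests), with Trpc5 (1.64 ± 0.25) and Pkd2 (0.75 ± 0.23) higher in aged Mrgprd nonpeptidergic-like nuclei. The mix of clusters in this subtype differed between the libraries, as given above, and its part was not tested.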

How the data were processed

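Lumbar DRG nuclei were profiled by PIP-seq single-nucleus RNA sequencing in 3 libraries. The deposited matrices hold UMI counts, made by the authors with Pipseeker from alignment to transcript counting. The submitters' processing notes name mm10, and the annotation release and the use of strand are not given in the sources used here. Sample labels were followed where the series text states a different age. The labels and the methods of the study differ on the sex of the aged mice. Neither was relied on, and the levels of Xist and the Y-linked genes are given above. Totals were 167664164, 95647106 and 69045987 UMIs.

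Barcodes with more than 1000 genes were kept (11518, 5130 and 2611). TRP genes were removed, and Seurat 5.3.0 was used for SCTransform, integration by age (RPCA, 30 components) and clustering (resolution 0.8). A cluster was named where 3 markers stood over 2-fold above the other clusters and were seen in 10% of its nuclei. A neuron cluster with 3 markers of more than 1 subtype took the name with most markers among its leading genes, and with none there it is called by leading genes. This rule was settled after the clusters had been seen, and the touch and position-sense clusters were joined as A-fiber-like. No doublet caller was run, and 973 nuclei of clusters with markers of several lineages were left out. Members and gene lists were chosen with earlier results of these data known.

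UMIs were summed per library and group (20 or more nuclei in each library). CPM are scaled by total UMIs alone, without the TMM factors of the fits, so that they can differ from the fitted values. Sums were fitted in edgeR 4.0.16 (quasi-likelihood, TMM, filterByExpr, prior count 0.125), p-values were adjusted over all genes tested (Benjamini-Hochberg, threshold 0.05), and DESeq2 1.42.0 was an alternative. A group was set against the mean of the others with the library as a block, and age tests had 1 residual degree of freedom. Named genes are the members, other TRP genes where called, up to 4 examples per comparison from 19 genes that act with them by smallest adjusted p, and the 3 genes most alike each member by log2(CPM + 1) among those with a mean CPM of 5 or more. Intervals are exact (95%) and cover counting error only. Positions are from GENCODE M21 (GRCm38). The values of 1 other TRP gene are not reported here. The fits were tested on simulated data.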

Additional observations from a re-analysis of the deposited data

Results flagged for a closer look

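The groups with too few nuclei for a comparison held a few levels whose 95% Poisson interval lay above every group compared in the same library. Trpc6 stood at 1478 CPM in mural-like nuclei, from pericytes and vascular smooth muscle, of the adult library (223 UMIs in 57 nuclei), where the highest class compared held 35.8. It stood at 751 CPM in 18 mural-like nuclei of aged replicate 1 (57 UMIs) and at 496 CPM in 3 nuclei of aged replicate 2 (6 UMIs). Trpv2 in mural-like nuclei of aged replicate 1 was at 158 CPM, from 12 UMIs. A group of 38 neuron-like nuclei of the adult library that is led by Grm5 and Rmst held 2501 CPM of Trpm3, against 2295 in the highest subtype compared, and this group had 1 nucleus in the aged libraries. None of these differences was tested.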

How the results depend on the processing

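No paired analysis was possible because the adult and aged groups share fewer than 2 replicate numbers. Over the groups shared with the settings of the report, thinning to 1000 UMIs per nucleus gave 12 calls by class against 20, of which 11 were among the 20, and 3 members higher in neuron-like nuclei against 7. It gave 29 calls by subtype against 58, of which 28 were among the 58, and 0 age calls in neurons against 2 and 4 within subtypes against 11, with fewer genes past the filter. The pair of Trpm8 with Trpv1 dropped to 6.19%, 3.92% and 3.57% under thinning. DESeq2 gave 1 age call in neurons, 6 within subtypes and 2 differences of age effect between subtypes, where edgeR gave none. Assigning nuclei one by one from markers gave 4 age calls within subtypes, of which 3 were among the 11, and 4 in other classes, of which 3 were among the 7, and a clustering resolution of 1.2 gave 7 within subtypes. Subtracting free RNA gave 13 age calls in other classes, 6 higher and 7 lower, and 1 difference of age effect, and so did dropping the low-count filter, with 1. The cause was not tested. Direction turned under marker assignment for Trpm3 (0.23) and Trpc6 (-0.17) in endothelial-like nuclei, and under thinning for Trpm8 in Mrgpra3 itch-like nuclei (0.45). Among age values in neurons that passed no test, it turned for Trpm8 at a resolution of 1.2 (0.0023), without low-Malat1 clusters (0.0492) and without mixed neuron clusters (0.0259), for Trpm2 (0.0883) and Trpc7 (-0.75) under thinning, and for Trpv4 without low-Malat1 (0.12) or mixed clusters (0.00939). Leaving out mixed neuron clusters was chosen after seeing the data. Leaving out an aged library put the age value of Trpm3 in neurons between -0.789 and -0.715 and that of Trpa1 between 0.723 and 0.788, as values with no test, since no residual degree of freedom is left. In depth, Trpv4 rests on 216 neuronal UMIs.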
